A study of Mus musculus with 6 samples.

Results

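Tubulin is the subunit of microtubules, and 10 of its genes were followed here through an RNA immunoprecipitation-sequencing (RIP-seq) experiment on mouse cerebellar granule cells (GCs). The genes were taken by name from the expression table, by matching its gene IDs to the GENCODE annotation of the GRCm38 genome. They were 4 alpha tubulin genes (Tuba1a, Tuba1b, Tuba1c and Tuba4a) and 6 beta tubulin genes (Tubb2a, Tubb2b, Tubb3, Tubb4a, Tubb4b and Tubb5). All 10 were found among the 52550 gene rows, and all 10 reached the mean of at least 1 FPKM (fragments per kilobase of transcript, relative to the size of the library) that a gene needed to be tested. Tuba4a reached that mean only through its RIP values, since its input mean was 0.934 FPKM, so its selection for testing was not independent of its difference from input.

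The experiment asked which RNAs are recovered from GCs, the abundant small glutamatergic neurons of the cerebellar cortex, with antibodies against YTHDF1 and YTHDF2. Both are cytoplasmic proteins that bind RNA carrying N6-methyladenosine (m6A). The 6 libraries formed 3 groups of 2, each with a replicate 1 and a replicate 2: input (RNA of the unselected lysate), anti-YTHDF1 RIP and anti-YTHDF2 RIP. All 3 groups came from wildtype C57BL/6 mice at postnatal day 8, with cerebellum as the tissue, and no group carried a transgene, a deletion or a drug. The same 2 input libraries served as the control of both RIPs. Whether replicates were separate animals or cultures is not said in the labels, and the p-values therefore cover the spread between single libraries, possibly a technical one. All 6 columns of the expression table were used, and none is labelled as made with a nonspecific antibody. RNA bound by YTHDF1 or YTHDF2 therefore cannot be told apart here from RNA retained without specificity.

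Microtubules are built from dimers of 1 alpha and 1 beta tubulin, and each of these comes in isotypes encoded by separate genes, whose proteins are almost alike except at the tail of the chain. That tail lies on the outside of the microtubule and is where enzymes add or remove residues and where many motors and associated proteins bind. In growing axons microtubules form the core of the shaft. Cells also adjust tubulin mRNA to the amount of free dimer, by a decay pathway that reads the first amino acids of the chain as it leaves the ribosome, and the 4th codon is where alpha and beta tubulin differ in that stretch.

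The sequences are shown because they decide which of these genes can be told apart by short reads, and because the start of the coding region is the part read by the decay pathway. In the first 12 coding bases, with the 4th codon in capitals, all 4 alpha genes had TGC and all 6 beta genes had ATC. The most abundant gene of each kind in the input is given as the example, Tuba1a from the minus strand of chromosome 15 and Tubb2b from the minus strand of chromosome 13 (chr13:34130222-34130233). In Tuba1a these 12 bases are split by an intron.
Tuba1a: atgcgtgagTGC
Tubb2b: atgcgagagATC

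The last 54 coding bases hold the tail. They are given 5′ to 3′ on the coding strand from GENCODE M21 transcripts on GRCm38, with the last amino acid codon and the stop codon in capitals. Of the alpha genes, Tuba1c and Tuba4a are shown, because they end in different codons, at chr15:99037956-99038009 (Tuba1c, plus strand) and chr1:75215622-75215675 (Tuba4a, minus).
Tuba1c: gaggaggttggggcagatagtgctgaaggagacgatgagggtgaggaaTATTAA
Tuba4a: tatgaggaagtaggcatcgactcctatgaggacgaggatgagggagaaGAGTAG

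Tuba1c and Tuba4a were identical at 25 of these 54 bases. The codon TAT encodes tyrosine, the residue that tubulin carboxypeptidases of the vasohibin family remove and tubulin tyrosine ligase puts back. The Tuba4a reading frame ended in GAG, a glutamate codon, before its stop codon.

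The beta tails are shown in the same way, at chr13:34074468-34074521 (Tubb2a, minus strand), chr13:34127471-34127524 (Tubb2b, minus), chr8:123421629-123421682 (Tubb3, plus), chr17:57080690-57080743 (Tubb4a, minus), chr2:25222308-25222361 (Tubb4b, minus) and chr17:35834982-35835035 (Tubb5, minus).
Tubb2a: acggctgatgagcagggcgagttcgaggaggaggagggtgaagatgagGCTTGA
Tubb2b: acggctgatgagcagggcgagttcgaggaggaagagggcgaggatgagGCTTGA
Tubb3: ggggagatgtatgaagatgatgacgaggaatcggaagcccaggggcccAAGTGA
Tubb4a: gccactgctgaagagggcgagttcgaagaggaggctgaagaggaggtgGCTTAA
Tubb4b: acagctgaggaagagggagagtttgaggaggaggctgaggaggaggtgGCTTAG
Tubb5: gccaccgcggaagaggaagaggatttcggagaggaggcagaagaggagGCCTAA

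Tubb2a and Tubb2b were identical at 51 of the 54 bases, Tubb4a and Tubb4b at 44, Tubb2b and Tubb5 at 29, and Tubb2b and Tubb3 at 23. Over the whole coding region Tubb2a and Tubb2b were 96.5% identical, and the 3 Tuba1 genes were between 97.1% and 98.3% identical to each other. Every gene had 4 exons in its longest complete coding transcript. Tuba1a, Tuba1b and Tuba1c neighbour each other on chromosome 15, and Tubb2a and Tubb2b on chromosome 13.

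How far a read can be assigned to 1 of these genes was described by the share of 50-base windows of a transcript that also occur in a transcript of another gene. The share was 72.9% for Tuba1a, 73.8% for Tuba1b and 61% for Tuba1c, which share windows mainly among themselves. It was 49.6% for Tubb2a and 39.3% for Tubb2b, with 712 windows common to this pair, and 50.9% for Tubb4b, of which 675 windows lie in the pseudogene Tubb4b-ps1. For Tuba4a (1.11%), Tubb3 (0%), Tubb4a (0.184%) and Tubb5 (0.115%) nearly every window was the gene's own. In the 3′ untranslated region no window was shared in 9 of the 10 genes, and 0.198% were in Tubb5. The sources used here do not say how the authors' counting divided reads that fit several genes, so the separate values of Tuba1a, Tuba1b and Tuba1c, of Tubb2a and Tubb2b, and of Tubb4b are uncertain. Sums over the Tuba1 genes and over Tubb2a and Tubb2b are given beside them, but none over Tubb4b and its pseudogene.

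**Figure D1:**
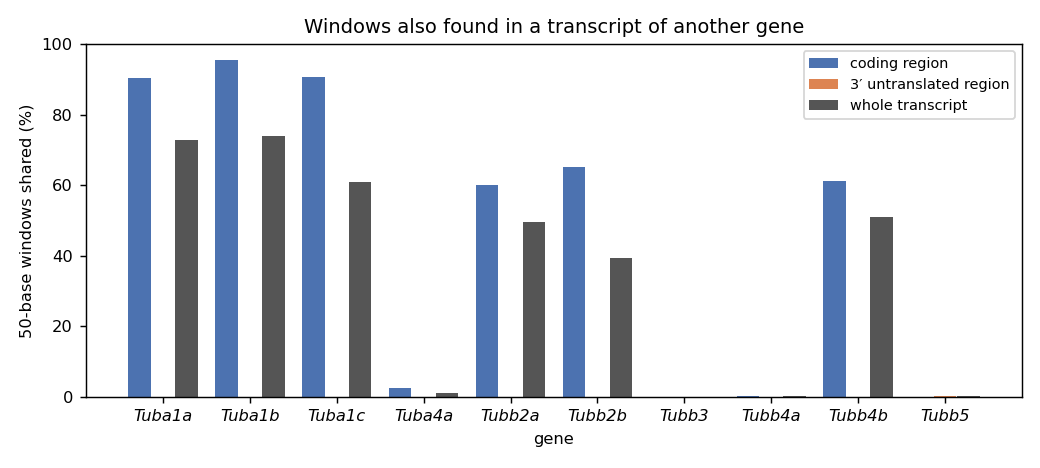
Share of 50-base windows (%) of each tubulin transcript that also occur in a transcript of another gene, for the coding region, the 3′ untranslated region and the whole transcript. Tuba1a, Tuba1b, Tuba1c, Tubb2a, Tubb2b and Tubb4b share between 39.3% and 73.8% of their whole transcript, and the other 4 genes at most 1.11%.

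The m6A mark occurs most often in short sequence contexts of which GGACT is among the commonest, with many sites close to stop codons. The letters GGACT were searched on the transcript strand only. They occurred in 9 of the 10 tubulin transcripts (Tuba1b had none), against 92.9% of the 9801 tested protein-coding genes with a complete coding transcript. Within 200 nt of the stop codon they occurred in 0 of the 10, against 40.3% of those coding genes. Tuba4a had the most, 7 in all with 5 in its 3′ untranslated region, or 2.46 per kb against a median of 1.04 per kb over coding genes. Tubb2a and Tubb2b each had 2, both in the coding region and at matching places, with the A lying 1115 and 995 nt before the stop codon in either gene. Such places were not particular to this pair. Tubb4b also had a GGACT with its A 1115 nt before the stop codon, Tubb4a and Tubb5 at 1112 nt and Tubb3 at 1010 nt. Of these genes, Tubb4a, Tubb4b and Tubb5 overlapped the input in both RIPs. The contexts of Tubb2a and Tubb2b are shown as an example chosen with their RIP values known, and a link of the sites to recovery was not tested. The motif is in capitals, from the minus strand of chromosome 13, upstream site first.
Tubb2a upstream (chr13:34076222-34076246): cgggcaccatGGACTcagtgaggtc
Tubb2a downstream (chr13:34075453-34075477): ccgagctggtGGACTctgtcctaga
Tubb2b upstream (chr13:34128916-34128940): caggcacaatGGACTcagtcaggtc
Tubb2b downstream (chr13:34128456-34128480): ccgagctggtGGACTctgtcctgga

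A match to these letters is a description of the sequence, and which of them carry m6A was not measured in these libraries. Tubb3, the beta tubulin used as a marker of neurons, had 3 in its coding region, Tubb4b 3, Tubb5 2 and Tubb4a 1. Tuba1c had 4, of which 3 lay in the 5′ untranslated region, and Tuba1a had 1.

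The libraries differed in estimated depth, and the table gives no counts. The FPKM worth of a single fragment on a transcript 1000 nt long, estimated from 4780 single-exon genes, was between 0.02 and 0.0534, smallest (deepest) in YTHDF1 RIP replicate 1 and largest in YTHDF2 RIP replicate 2. Nuclear protein-coding genes made up 7.71% and 8.26% of the summed FPKM in the input libraries and 10.1% to 18.9% in the RIP libraries. The summed FPKM of 9 GC markers was 326 and 432 in the input and 306 to 787 in the RIP libraries, with Gabra6, a marker of mature GCs, at 0 in some library and the other 8 detected in all. The labelled cell type was thus carried by its markers, while markers of other cells were also present, among them those of astrocytes and Bergmann glia (summed FPKM 121 to 286), the oligodendrocyte lineage (83.8 to 160) and erythroid cells (48.6 to 200, highest in YTHDF1 RIP replicate 2).

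In the input, Tuba1a was the most abundant of the 10 genes and Tuba4a the least. Since FPKM is a value per transcript length, levels can be set side by side between genes. The levels of Tuba1a, Tuba1b, Tuba1c, Tubb2a, Tubb2b and Tubb4b, and so their places in the order, depend on how shared reads were divided. Mean input levels were 455 ± 164 FPKM (SD, n = 2 here and for every mean below) for Tuba1a, 170 ± 4.03 for Tubb2b, 159 ± 41.2 for Tubb5 and 112 ± 40.3 for Tuba1b. They were followed by Tuba1c at 59.2 ± 31.4, Tubb3 at 51.3 ± 6.51, Tubb4a at 43.6 ± 20.2, Tubb2a at 36.3 ± 5.82, Tubb4b at 28.3 ± 10.9 and Tuba4a at 0.934 ± 0.425. Neighbours in this order had overlapping libraries except at 3 steps: Tuba1a above Tubb2b, Tuba1b above Tuba1c, and Tubb4b above Tuba4a. In both RIPs Tubb2b had the highest mean and Tuba1a the second, and Tuba4a remained lowest.

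Tubb2b encodes a beta tubulin of migrating and growing neurons, and mutations of its human counterpart cause malformations of the cortex. Its FPKM in replicates 1 and 2 was 173 and 167 in the input, 951 and 330 after YTHDF1 RIP, and 650 and 396 after YTHDF2 RIP. All 4 RIP libraries lay above both inputs, and the replicates of the input agreed far more closely than those of either RIP. Of all genes tested, 33.8% had both YTHDF1 RIP libraries above both inputs, and 41.5% both YTHDF2 RIP libraries. The share of all genes with all 4 above was not counted, here or for the genes below. On the scale of log2(FPKM + 1), where limma was run, the difference from input was 1.71 (SE 0.71, Benjamini-Hochberg adjusted p = 0.176) for YTHDF1 and 1.57 (SE 0.71, adjusted p = 0.15) for YTHDF2, neither of which passed 0.05. The first was 0.95 without YTHDF1 RIP replicate 1 and 2.48 without replicate 2.

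Tubb2a, its close neighbour in sequence and position, gave the same picture at a lower level. It was 32.2 and 40.5 FPKM in the input, 171 and 74.1 after YTHDF1 RIP, and 158 and 70.8 after YTHDF2 RIP. Again the RIP and input libraries did not overlap. The log2 difference was 1.61 (SE 0.63, adjusted p = 0.159) for YTHDF1 and 1.52 (SE 0.63, adjusted p = 0.125) for YTHDF2. Without replicate 1 of the RIP concerned these were 1.02 and 0.95. The ratio of Tubb2b to Tubb2a stayed between 4.12 and 5.6 in all 6 libraries, with inputs (5.37 and 4.14) inside the range of the RIPs. Since reads of this pair may have been divided between them, their sum is the safer value. It was 205 and 208 FPKM in the input, 1122 and 404 after YTHDF1 RIP and 808 and 467 after YTHDF2 RIP, so all 4 RIP libraries were also above input when the pair was counted as 1.

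Tubb3, the class III beta tubulin of neurons, shares no window with another gene. Its FPKM was 46.7 and 55.9 in the input, 250 and 52.3 after YTHDF1 RIP, and 201 and 58.2 after YTHDF2 RIP. Replicate 1 of each RIP was far above the input, whereas replicate 2 of the YTHDF1 RIP lay between the inputs and replicate 2 of the YTHDF2 RIP lay just above them. The log2 difference was 1.15 (SE 0.88, adjusted p = 0.426) for YTHDF1 and 1.07 (SE 0.88, adjusted p = 0.404) for YTHDF2, and without replicate 1 of the RIP concerned it was as low as 0.03 and 0.19.

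Tubb5, an isotype found in most dividing and differentiating cells, was 130 and 188 FPKM in the input, 265 and 117 after YTHDF1 RIP, and 210 and 143 after YTHDF2 RIP. The YTHDF1 RIP libraries lay on either side of the inputs and the YTHDF2 RIP libraries partly between them, and the log2 difference was 0.17 (SE 0.63, adjusted p = 0.885) for YTHDF1 and 0.15 (SE 0.63, adjusted p = 0.88) for YTHDF2. Tubb4b, a widely expressed isotype that is also used in cilia, was 20.6 and 36.1 in the input, 74.8 and 20.6 after YTHDF1 RIP, and 68.7 and 21.3 after YTHDF2 RIP. Replicate 1 of each RIP was above both inputs and replicate 2 was close to the lower input. Its log2 difference was 0.52 (SE 0.78, adjusted p = 0.701) and 0.48 (SE 0.78, adjusted p = 0.688) for YTHDF1 and YTHDF2.

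Tubb4a is an isotype of the nervous system that is abundant in myelinating oligodendrocytes. It was 29.3 and 57.9 FPKM in the input, 49.5 and 12 after YTHDF1 RIP, and 53.1 and 31.1 after YTHDF2 RIP. The lowest library was replicate 2 of the YTHDF1 RIP, and both RIPs overlapped the input. The log2 difference was −0.72 (SE 0.73, adjusted p = 0.553) for YTHDF1 and −0.02 (SE 0.73, adjusted p = 0.988) for YTHDF2. The summed FPKM of 9 oligodendrocyte lineage markers, all of them above 0 in every library, was 83.8 and 110 in the input, 127 and 85 after YTHDF1 RIP and 143 and 160 after YTHDF2 RIP, and their part in the Tubb4a values was not tested. In bulk libraries, fewer cells of a type and less RNA per cell cannot be told apart.

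The alpha tubulins of neurons did not follow Tubb2a and Tubb2b. Tuba1a encodes the main alpha tubulin of postmitotic neurons, and mutations of its human counterpart cause lissencephaly. It was 339 and 571 FPKM in the input, 343 and 300 after YTHDF1 RIP, and 356 and 119 after YTHDF2 RIP. Of the RIP libraries, 2 lay just above the lower input and 2 below it. The log2 difference was −0.46 (SE 0.71, adjusted p = 0.711) for YTHDF1 and −1.09 (SE 0.71, adjusted p = 0.298) for YTHDF2, the latter −1.88 without YTHDF2 RIP replicate 1, −0.30 without its replicate 2 and −0.72 without input replicate 2.

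Tuba1b, a broadly expressed isotype, was 83.1 and 140 FPKM in the input, 128 and 71.8 after YTHDF1 RIP, and 113 and 41.4 after YTHDF2 RIP. Tuba1c, which is also broadly expressed, was 37 and 81.4 in the input, 47 and 26.9 after YTHDF1 RIP, and 38.3 and 13.8 after YTHDF2 RIP. For both genes replicate 1 of each RIP lay between the inputs and replicate 2 below them. The log2 difference for Tuba1b was −0.17 (SE 0.67, adjusted p = 0.895) and −0.65 (SE 0.67, adjusted p = 0.51) for YTHDF1 and YTHDF2, and that for Tuba1c −0.61 (SE 0.66, adjusted p = 0.577) and −1.21 (SE 0.66, adjusted p = 0.217). For YTHDF2 the Tuba1c value was −1.92 without RIP replicate 1, −0.51 without RIP replicate 2 and −0.65 without input replicate 2. Summed, the 3 Tuba1 genes were at 459 and 793 FPKM in the input, 519 and 398 after YTHDF1 RIP and 508 and 174 after YTHDF2 RIP. The sum, which does not depend on how reads were divided among these 3 genes, thus overlapped the input in both RIPs.

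Tuba4a was the exception among the alpha genes, at a level near the floor of the test in the input. It is an isotype of mature neurons and other tissues, and mutations of its human counterpart occur in amyotrophic lateral sclerosis. Its FPKM was 0.634 and 1.23 in the input, 4.24 and 2.32 after YTHDF1 RIP, and 4.45 and 2.99 after YTHDF2 RIP. All 4 RIP libraries were above both inputs. The log2 difference was 1.13 (SE 0.37, adjusted p = 0.116) for YTHDF1 and 1.29 (SE 0.37, adjusted p = 0.0509) for YTHDF2. Because the RIP values brought Tuba4a over the filter, it had to be higher in a RIP to be tested at all, and these values are a description. Over the alternatives the adjusted p for YTHDF2 ran on both sides of the threshold, from 0.0224 with a replicate block to 0.342 without input replicate 1, and was 0.175 without a filter.

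**Figure D2:**
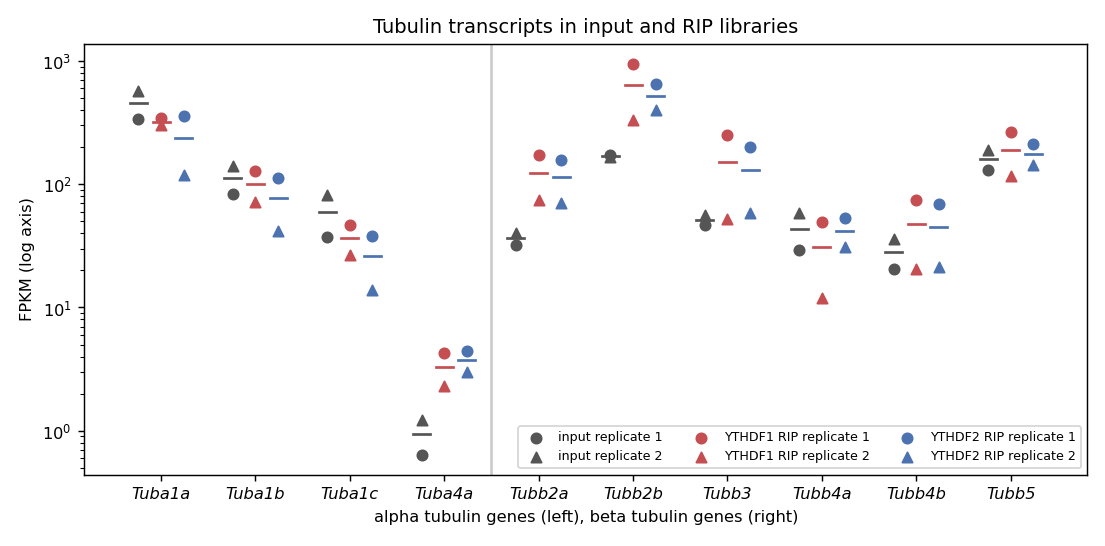
FPKM (log axis) of the 10 tubulin genes in each library, alpha genes to the left of the vertical line and beta genes to its right, with a horizontal bar for the mean of the 2 libraries of a group. Tubb2a, Tubb2b and Tuba4a have all 4 RIP points above both input points, and in every gene the circle (replicate 1) of a RIP lies above its triangle (replicate 2). The share of all genes with all 4 RIP points above was not counted. It was 33.8% for YTHDF1 alone and 41.5% for YTHDF2 alone. Tuba4a reached the filter only through its RIP values.

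Counted over the family, YTHDF1 RIP against input gave 0 of 10 tubulin genes past an adjusted p of 0.05 by limma, the only tool run, against 2.57% of the 11057 genes tested. At an unadjusted p under 0.05, 3 of 10 were higher in the RIP (Tuba4a, Tubb2a and Tubb2b, or 2 of 9 without Tuba4a) and 0 lower, against 13.2% of all genes higher and 13.5% lower. The ratio of the group means exceeded 2 in 4 of 10, against 23.3% of all genes. These were Tuba4a (3.52), Tubb2a (3.37), Tubb2b (3.76) and Tubb3 (2.95), or 3 of 9 without Tuba4a. The study called enrichment by a fold change of RIP over input, without stating how replicates were combined. For either antibody, far more genes passed by the ratio of means than the study reports as pulled down. A ratio above the cutoff is therefore not the study's call for a gene. Tuba4a, Tubb2a and Tubb2b, 3 of 10 (2 of 9 without Tuba4a), had both RIP libraries above both inputs, against 33.8% of all genes, so this count was near the background, and 0 of 10 had both below, against 30.2%. The median log2 difference was −0.31 over the 4 alpha genes and 0.83 over the 6 beta genes, beside 0.05 over all genes tested.

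YTHDF2 RIP against the same input gave 0 of 10 past the adjusted threshold of limma, against 18.5% of all genes tested. At an unadjusted p under 0.05, 2 of 10 were higher (Tuba4a and Tubb2a, or 1 of 9 without Tuba4a) and 0 lower, against 24% of all genes higher and 13.6% lower. The ratio of means exceeded 2 in 4 of 10 (Tuba4a 3.98, Tubb2a 3.14, Tubb2b 3.07 and Tubb3 2.53, or 3 of 9 without Tuba4a), against 34.5% of all genes, and was under 0.5 in Tuba1c (0.441), against 16.9% of all genes. Tuba4a, Tubb2a, Tubb2b and Tubb3, 4 of 10 (3 of 9 without Tuba4a), had both RIP libraries above both inputs, against 41.5% of all genes, and 0 of 10 had both below, against 24.9%. The median log2 difference was −0.87 over the alpha and 0.77 over the beta genes, beside 0.26 over all genes tested. The count of 0 depended on the scaling: when each library was scaled to the same summed FPKM, Tuba4a (log2 difference 1.91, adjusted p = 0.0225), Tubb2a (2.18, adjusted p = 0.0348) and Tubb2b (2.23, adjusted p = 0.047) passed, while the median of all genes moved to 0.79.

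**Figure D3:**
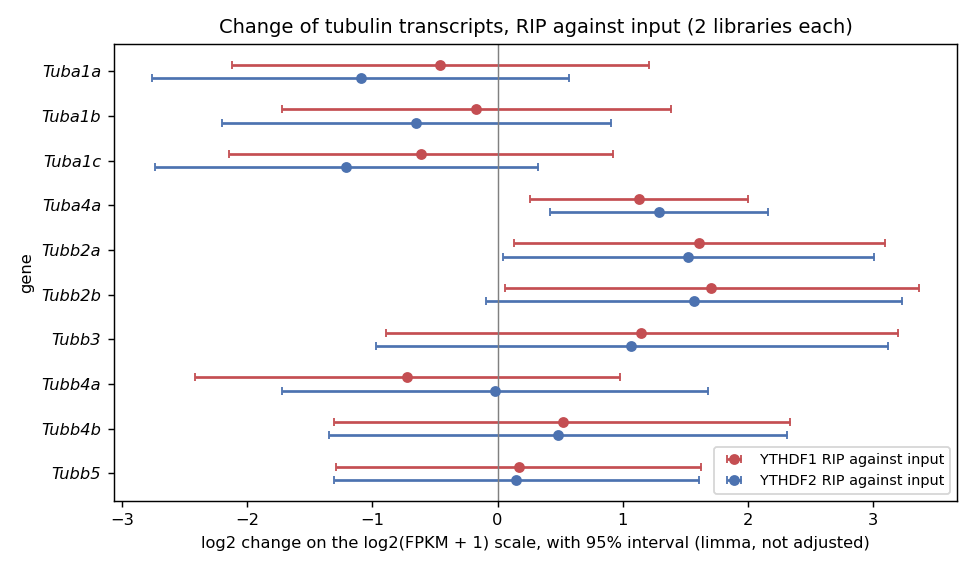
Log2 difference of each tubulin gene between RIP and input on the log2(FPKM + 1) scale, with the 95% interval from limma before adjustment, for YTHDF1 (red) and YTHDF2 (blue), with 2 libraries in each group. The intervals of Tuba4a and Tubb2a lie above 0 for both antibodies and that of Tubb2b for YTHDF1, and none passed the adjusted threshold. Tuba4a reached the filter only through its RIP values, so intervals above 0 were favoured in advance for this gene.

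The YTHDF2 RIP was also set against the YTHDF1 RIP. Log2 differences of the 10 genes ran from −0.64 (Tuba1a, 95% interval −2.30 to 1.02) to 0.70 (Tubb4a, −0.99 to 2.40), with adjusted p between 0.879 and 0.997 by limma. Tubb2b differed by −0.14 (interval −1.80 to 1.51), Tubb2a by −0.09 (−1.57 to 1.39), Tubb3 by −0.08 (−2.13 to 1.96) and Tuba4a by 0.16 (−0.71 to 1.03). With intervals this wide a difference of several fold in either direction was not detectable for most of these genes. None of the 10 had non-overlapping libraries, against 21.6% of all genes with both YTHDF2 libraries higher and 8.09% with both lower. None passed the adjusted threshold, against 0.00904% of all genes, and 0 of 10 were under an unadjusted p of 0.05, against 3.54% of all genes higher in the YTHDF2 RIP and 0.778% lower.

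A feature that all 10 genes shared was the order of the RIP replicates. In the YTHDF1 RIP replicate 1 was above replicate 2 in 10 of 10 tubulin genes, and likewise in the YTHDF2 RIP in 10 of 10. Over all genes tested the share was 43.8% after YTHDF1 RIP and 30.1% after YTHDF2 RIP. The counts of the 2 RIPs are not independent of each other. Over all genes tested, same-numbered libraries of the 2 RIPs deviated from their group means together, with a correlation of 0.68. In the input the order was the other way, with replicate 1 above replicate 2 in 1 of 10 (Tubb2b), against 42.1% of all genes. Summed over the 10 genes, tubulin made up 1.36% and 1.86% of nuclear protein-coding FPKM in the input, 3.4% and 1.54% after YTHDF1 RIP, and 2.66% and 0.986% after YTHDF2 RIP. Replicate 1 of each RIP was therefore above both inputs, and replicate 2 of the YTHDF2 RIP below them. Within each group the library with more tubulin was also the deeper one by an uncertain estimate, the fitted FPKM worth of 1 fragment on 1000 nt. This estimate was 0.038 and 0.0322 in the input, 0.02 and 0.0391 after YTHDF1 RIP, and 0.0266 and 0.0534 after YTHDF2 RIP. The part of depth in these values was not tested.

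Ratios between tubulin genes of the same library are free of the scaling between libraries. The summed alpha tubulin FPKM was 460 and 794 in the input, 523 and 401 after YTHDF1 RIP, and 512 and 177 after YTHDF2 RIP. The summed beta tubulin FPKM was 432 and 546 in the input, 1762 and 606 after YTHDF1 RIP, and 1341 and 721 after YTHDF2 RIP. Summed beta tubulin was thus above both inputs in all 4 RIP libraries, and summed alpha tubulin was not. Of the beta sum, Tubb2a and Tubb2b together made up 205 and 208 FPKM in the input. They made up 1122 and 404 after YTHDF1 RIP and 808 and 467 after YTHDF2 RIP. Tubb4a, Tubb4b and Tubb5 each overlapped the input in both RIPs, so not every beta gene showed the difference of the sum. The ratio of alpha to beta was 1.07 and 1.45 in the input, 0.297 and 0.662 after YTHDF1 RIP, and 0.382 and 0.245 after YTHDF2 RIP. Alpha exceeded beta in both inputs and beta exceeded alpha in all 4 RIP libraries. With 2 libraries against 2 an exact two-sided permutation test cannot go below p = 0.333, which is the value for groups that do not overlap, as in each RIP here.

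The most abundant gene of each family was compared in the same way. The ratio of Tubb2b to Tuba1a was 0.51 and 0.293 in the input, 2.77 and 1.1 after YTHDF1 RIP, and 1.82 and 3.34 after YTHDF2 RIP. Tuba1a was the larger in both inputs and Tubb2b in every RIP library. As a share of nuclear protein-coding FPKM, beta tubulin was 0.656% and 0.758% in the input, 2.62% and 0.927% after YTHDF1 RIP, and 1.92% and 0.792% after YTHDF2 RIP. The corresponding share of alpha tubulin was 0.699% and 1.1% in the input, 0.777% and 0.613% after YTHDF1 RIP, and 0.734% and 0.194% after YTHDF2 RIP. On this scale too the beta sum of every RIP library was above both inputs, although replicate 2 of the YTHDF2 RIP exceeded the higher input by little.

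**Figure D4:**
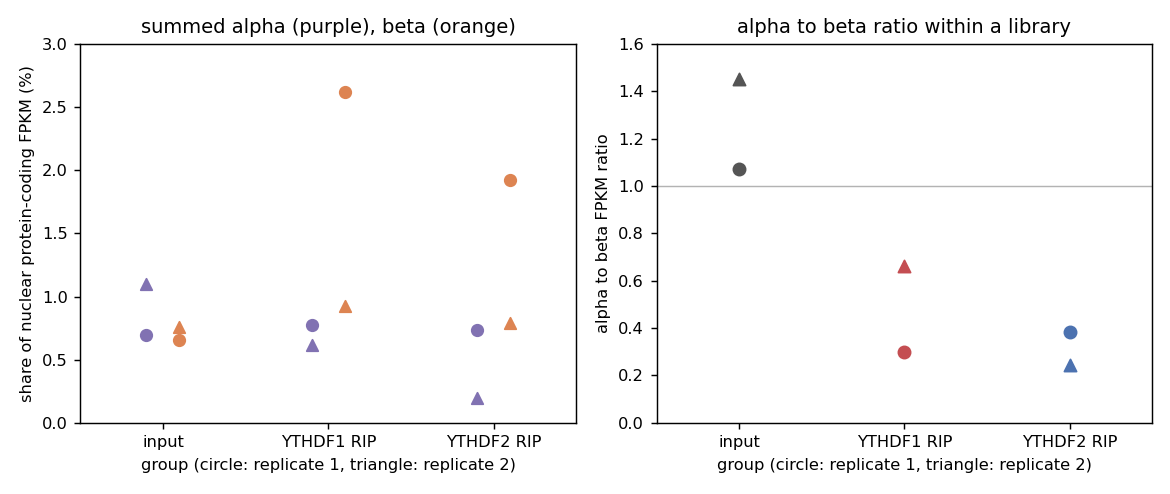
Left, summed alpha (purple) and beta (orange) tubulin as a share of nuclear protein-coding FPKM (%); right, the ratio of summed alpha to summed beta tubulin FPKM within each library, with a line at 1. Circles are replicate 1 and triangles replicate 2; the ratio is 1.07 and 1.45 in the input and at most 0.662 in the RIP libraries.

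The shares of genes within the beta family also differed between input and RIP. They restate the FPKM values above as parts of a sum, so a rise of 1 gene lowers the shares of others. Tubb2b held 40.1% and 30.7% of summed beta tubulin FPKM in the input, 54% and 54.4% after YTHDF1 RIP, and 48.5% and 55% after YTHDF2 RIP. Tubb5 held 30.1% and 34.5% in the input, 15% and 19.3% after YTHDF1 RIP, and 15.7% and 19.9% after YTHDF2 RIP. Tubb2b had a larger share and Tubb5 a smaller one in all 4 RIP libraries than in either input. The FPKM of Tubb5 itself overlapped the input in both RIPs, with log2 differences of 0.17 for YTHDF1 and 0.15 for YTHDF2. Tubb2a, at 7.47% and 7.41% in the input and 9.71% to 12.2% in the RIP libraries, was also larger in all 4. Tubb4a, at 6.77% and 10.6% in the input and 1.98% to 4.31% in the RIP libraries, was smaller in all 4. Tubb3 held 10.8% and 10.2% in the input, 14.2% and 8.63% after YTHDF1 RIP and 15% and 8.07% after YTHDF2 RIP, so its share was higher than input in replicate 1 and lower in replicate 2 of both RIPs. Tubb4b, between 2.95% and 6.61% in all libraries, overlapped the input in the YTHDF2 RIP and lay below it in the YTHDF1 RIP.

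In the alpha family the order of the genes by share was the same in all 6 libraries. Tuba1a held 73.8% and 71.9% of summed alpha FPKM in the input and 65.6% to 74.8% in the RIP libraries. Tuba1b held 18.1% and 17.6% in the input and 17.9% to 24.6% in the RIP libraries, and Tuba1c 8.04% and 10.3% and 6.7% to 8.99%. In the YTHDF1 RIP these shares overlapped the input, and in the YTHDF2 RIP Tuba1a and Tuba1c had smaller and Tuba1b larger shares than either input. The shares of these 3 genes depend on how reads were divided among them. Tuba4a, which shares few windows with them, held 0.138% and 0.155% in the input, 0.811% and 0.58% after YTHDF1 RIP and 0.869% and 1.69% after YTHDF2 RIP. It was a larger part of alpha tubulin in every RIP library, at a share that stayed below that of the other 3 genes. The input share of Tuba4a rests on 0.634 and 1.23 FPKM, near the floor. Since its RIP values brought it over the filter, its shares are a description.

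**Figure D5:**
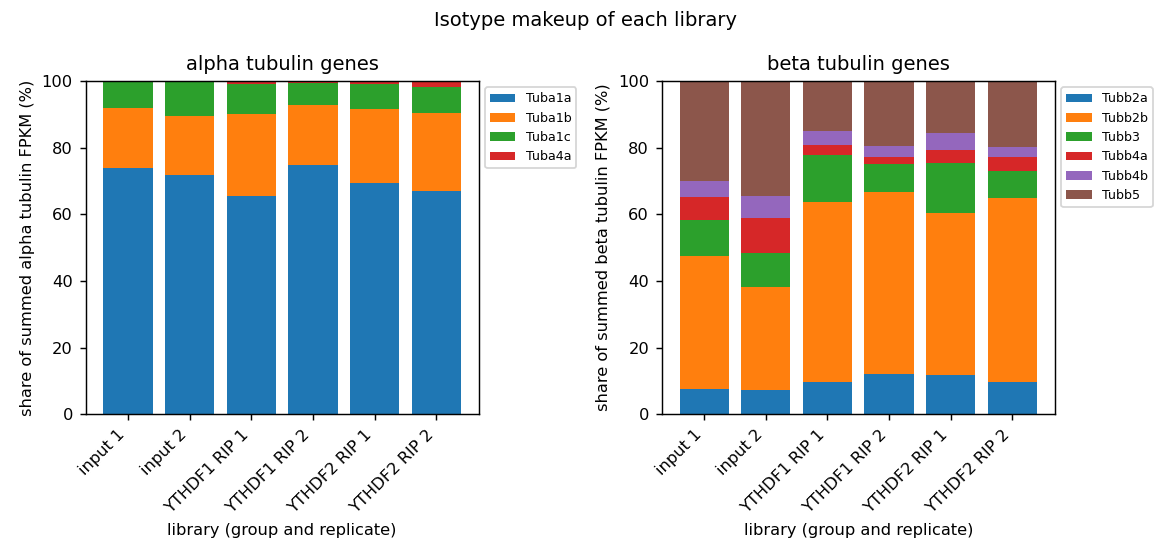
Stacked shares (%) of summed alpha tubulin FPKM (left) and summed beta tubulin FPKM (right) held by each gene in each of the 6 libraries. Tubb2b holds 30.7% to 40.1% in the input and 48.5% to 55% in the RIP libraries, and Tubb5 is at most 19.9% in the RIP libraries against at least 30.1% in the input.

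The genes whose profile over the 6 libraries lay nearest to the mean profile of the 10 tubulins were sought among the other tested protein-coding genes, by the Euclidean distance between centred log2(FPKM + 1) values. The nearest were Tmem11 (distance 0.189), a mitochondrial membrane protein, Med11 (0.223), a subunit of the Mediator complex, Mcm5 (0.268), a subunit of the replicative helicase, Plk1 (0.317), a mitotic kinase, and Ppp2r1a (0.318), a scaffold subunit of protein phosphatase 2A. Among the tubulins themselves Tubb5 (0.5) and Tubb4b (0.581) were nearest to that mean and Tuba1c (1.64) and Tuba1a (1.63) farthest. The mean profile was high in replicate 1 of both RIPs, as the value for Tmem11 illustrates, at 5.89 and 8.24 FPKM in the input, 16.7 and 5.96 after YTHDF1 RIP and 13.9 and 5.16 after YTHDF2 RIP.

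Other genes that fold, modify or bind tubulin are given for comparison. Calls among them, like those among all genes, rested on having both input libraries: without input replicate 1 or 2, at most 9 genes of all those tested passed for YTHDF2 and at most 8 for YTHDF1. Of 10 further tubulin genes, 3 were tested and none passed for either antibody. Tubb6 was 1.06 and 1.02 FPKM in the input, 3.26 and 1.72 after YTHDF1 RIP and 3.35 and 3.07 after YTHDF2 RIP (log2 difference 0.74 and 1.05, adjusted p = 0.202 and 0.0641). Like Tubb2a and Tubb2b it was above input in all 4 RIP libraries. Tubg1, the gamma tubulin that nucleates microtubules, was between 4.23 and 18 FPKM in the RIP libraries, on either side of its input values of 7.38 and 7.18. Tuba8 was at most 2.58 FPKM in any library.

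The folding cofactors and the prefoldin complex, which hand newly made tubulin to its chaperonin and assemble the dimer, were the list with a called member for YTHDF1. There 1 of 13 was lower and 0 higher, against 1.94% and 0.624% of all genes, and for YTHDF2 3 were lower and 0 higher, against 6.66% and 11.9%. Their median log2 difference was −0.48 for YTHDF1 and −0.47 for YTHDF2, beside 0.05 and 0.26 over all genes. The prefoldin subunit Pfdn4 was 6.1 and 7.14 FPKM in the input, 1.17 and 1.39 after YTHDF1 RIP and 0.623 and 1.16 after YTHDF2 RIP, lower for both (log2 difference −1.74, adjusted p = 0.0404, and −2.02, adjusted p = 0.0147). Pfdn5 (−2.19, adjusted p = 0.0248) and Tbca (−1.94, adjusted p = 0.0198), the cofactor that holds free beta tubulin, were lower for YTHDF2. Tbca, the partner of beta tubulin, was 25.2 and 29.5 FPKM in the input, 9.1 and 7.74 after YTHDF1 RIP and 6.79 and 5.98 after YTHDF2 RIP.

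In the list of soluble tubulin binders and severing enzymes 0 of 15 were higher and 3 lower for YTHDF2, against 11.9% and 6.66% of all genes, and 0 passed for YTHDF1, against 0.624% and 1.94%. The 3 genes were Stmn1, Stmn2 and Stmn3, which encode stathmins, small proteins that bind free tubulin dimers. The median log2 difference of this list was 0.11 for YTHDF2, beside 0.26 over all genes, with 8 of 15 positive. Stmn1 was 260 and 336 FPKM in the input, 63.2 and 30.8 after YTHDF1 RIP and 70.5 and 33.6 after YTHDF2 RIP, with log2 differences of −2.71 (adjusted p = 0.0591) and −2.58 (adjusted p = 0.0311). For Stmn2 (−1.70, adjusted p = 0.0256) and Stmn3 (−1.51, adjusted p = 0.0348) the differences for YTHDF2 were smaller. Stmn1 was thus above Tubb2b in both inputs and below it in every RIP library.

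The remaining lists had no more calls than the share over all genes (11.9% higher and 6.66% lower for YTHDF2) would give, so nothing is read from their counts. No gene of the 3 for tubulin autoregulation passed. Ttc5, which recognises the start of the nascent tubulin chain, was 4.74 and 4.82 FPKM in the input, 6.8 and 11.1 after YTHDF1 RIP and 6.67 and 7.6 after YTHDF2 RIP, while Scaper and Cnot11, which connect it to the CCR4-NOT deadenylase, had negative log2 differences for both antibodies. None of 15 tubulin-modifying enzymes passed, among them Vash1, a carboxypeptidase that removes the tyrosine, at 19.1 and 17 FPKM in the input, 36.1 and 61.6 after YTHDF1 RIP and 41 and 84.2 after YTHDF2 RIP (adjusted p = 0.162 and 0.0678). For YTHDF2, 1 of 15 proteins that bind the microtubule lattice passed, Map1s, which was 0.33 and 0.485 FPKM in the input and 1.66 to 2.62 in the RIP libraries and so reached the filter only through the RIPs. Of 13 that bind microtubule ends, 1 was higher, Clip2 (log2 difference 2.11, adjusted p = 0.0366). In the same contrast, among 16 genes of microtubule nucleation, Tubgcp6, a subunit of the gamma tubulin ring complex, was higher (1.47, adjusted p = 0.0269) and Haus1, a subunit of augmin, lower (−1.31, adjusted p = 0.0363). None of these lists had a call for YTHDF1. The neuronal lattice binders Map1b and Dcx did not pass for either antibody, with log2 differences of −1.39 and −1.75 for YTHDF1 and −0.63 and −0.16 for YTHDF2.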

How the data were processed

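RIP-seq libraries of P8 cerebellar GCs (2 input, 2 anti-YTHDF1, 2 anti-YTHDF2) were deposited by the authors as 1 table of FPKM per gene, with replicates kept apart and no further scaling stated. The study's methods name STAR v2.5 and Cufflinks 2.2.1 on GRCm38, while the submitters' processing notes list Bowtie 0.12.2, mm8 and mm9. The sources used here do not settle which of these made the table, or whether strand was used. GENCODE M21 on GRCm38 gave symbols, coordinates and sequences, and 147 of 52550 IDs had no entry.

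limma 3.58.1 (R 4.3.3) was fitted to log2(FPKM + 1) of all 6 libraries, with a mean per group (3 residual degrees of freedom) and eBayes with trend. It covered the 11057 genes whose mean reached 1 FPKM, and Benjamini-Hochberg adjustment ran over all of them for each contrast (two-sided, threshold 0.05). A log2 difference on this scale understates that of low genes. The fit was tested on simulated data. No count test was run, because whole reads were not recovered from the FPKM: when low values were divided by the FPKM of 1 fragment, 33.5% to 42.8% came within 0.1 of a whole number. Chance gives 20% for a value fixed beforehand. The FPKM of 1 fragment was chosen as the best fit to these same values, so 20% understates its chance level.

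All 10 tubulins were named. From each comparison list the 3 most abundant tested genes and up to 3 calls in each direction were eligible, and 5 genes by likeness of profile. The tubulin genes and the lists were chosen with earlier results of these data known. Alternatives varied the pseudocount (0.1), the filter (none, or a mean of 5 FPKM), the scaling, the replicate block, the libraries fitted, the trend and each replicate. The replicate numbers carry no stated meaning.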

Additional observations from a re-analysis of the deposited data

How the results depend on the processing

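No tubulin gene passed the threshold for YTHDF1 under any alternative except 1 gene with crossed replicate pairing. For YTHDF2 the count of 0 became 1 (Tuba4a) with a pseudocount of 0.1 FPKM, with the replicate block and with the 2 groups fitted alone, 3 with TPM-like scaling (each library to the same summed FPKM) and 0 to 1 with a replicate left out. That 1 was Tuba4a without YTHDF1 RIP replicate 1 (adjusted p = 0.0497). The Tuba4a difference was 1.29 (adjusted p = 0.0224) with the replicate block, but its adjusted p was 0.0704 with nuclear coding scaling, 0.142 with median-of-ratios scaling, 0.175 without a filter and 0.342 without input replicate 1. For YTHDF2 against YTHDF1 it stayed 0. The cause was not tested.

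Over all genes, YTHDF1 gave 284 calls, 0 without a filter, 0 with TPM-like scaling, 634 with median-of-ratios scaling, 604 with scaling to nuclear protein-coding genes, 1432 with the replicate block, 755 with the 2 groups alone and 0 to 802 with a replicate left out (8 and 0 without input replicate 1 or 2, 1 and 0 without YTHDF1 RIP replicate 1 or 2, 802 and 747 without YTHDF2 RIP replicate 1 or 2). YTHDF2 gave 2049, 0 without a filter, 1243 with a mean of at least 5 FPKM, 3349 with the replicate block and 0 to 2141 with a replicate left out (9 and 0 without input replicate 1 or 2, 860 without YTHDF2 RIP replicate 2). YTHDF2 against YTHDF1 gave 1, or 0 with a pseudocount of 0.1, no filter, the stricter filter, TPM-like or median-of-ratios scaling and the 2 groups alone, 2 with the replicate block, and 0 to 1 with a replicate left out (0 without either input replicate or replicate 2 of either RIP). Of the YTHDF1 calls 69 of 284 were higher, and 133 of 634 with median-of-ratios scaling and 226 of 604 with nuclear coding scaling. Of the YTHDF2 calls 1313 of 2049 were higher, 2271 of 2496 with TPM-like and 750 of 1893 with median-of-ratios scaling.

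The block is given only here because same-numbered libraries did not all deviate together: over genes the correlation of deviations was −0.14 between input and either RIP and 0.68 between the RIPs. Crossing the input's numbers, an alternative chosen after seeing the data, gave 2239 calls for YTHDF1 (1 tubulin) and 4007 for YTHDF2 (2 tubulins).

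TPM-like scaling, which moved the median of all genes to 0.49, 0.79 and 0.33 in the 3 contrasts, turned Tuba1a to 0.11 and Tuba1b to 0.40 for YTHDF1, and Tuba1b to 0.01 and Tubb4a to 0.63 for YTHDF2. Between the RIPs it turned Tubb2a to 0.00, Tubb3 to 0.01, Tubb4b to 0.06 and Tubb5 to 0.07. Median-of-ratios scaling turned Tubb5 to −0.18 for YTHDF2 and Tuba4a to −0.07 between the RIPs, and nuclear coding scaling turned them to −0.06 and −0.03.

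With a replicate left out, log2 differences for YTHDF1 ran from −0.58 to 0.25 for Tuba1b, −1.70 to 0.26 for Tubb4a, −0.39 to 1.42 for Tubb4b and −0.41 to 0.76 for Tubb5. For YTHDF2 they ran from −1.36 to 0.07 for Tuba1b, −0.50 to 0.46 for Tubb4a, −0.35 to 1.30 for Tubb4b and −0.12 to 0.43 for Tubb5. Between the RIPs all 10 changed sign: Tuba1a −1.43 to 0.15, Tuba1b −1.19 to 0.24, Tuba1c −1.30 to 0.10, Tuba4a −0.17 to 0.49, Tubb2a −0.69 to 0.51, Tubb2b −0.90 to 0.62, Tubb3 −1.20 to 1.04, Tubb4a −0.28 to 1.68, Tubb4b −0.94 to 0.87 and Tubb5 −0.61 to 0.57. A group left with 1 library was assumed to vary like the others. Against input, Tuba4a, Tubb2a, Tubb2b and Tubb3 had a positive sign and Tuba1c a negative one in the alternatives fitted per gene. These leave out the crossed pairing and, for Tuba4a, the filter at 5 FPKM, where it was not tested.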
